A study of Mus musculus with 6 samples.

Results

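The transcripts described here encode UDP-glucuronosyltransferases (Ugt), cytosolic sulfotransferases (Sult) and the aldo-keto reductases of family 1 (Akr1) of the mouse kidney. They were chosen by gene name: every row of the expression table with values whose symbol follows the naming pattern of families Ugt1 to Ugt3, Sult1 to Sult6 or Akr1a to Akr1e. Of 19503 genes with values, 44 matched, namely 19 Ugt, 10 Sult and 15 Akr1 genes. A further 12 matching rows, 11 of them Sult genes, held no values and were not used. RNA came from whole kidneys of mice 8 weeks old, with 3 libraries labelled wild type and 3 labelled R26NICD2/+pax8cre, here NICD2_Pax8. The second group has 1 Rosa26 allele that expresses NICD2, the intracellular part of the receptor Notch2, once recombined, and a Pax8-driven Cre recombinase, which acts in the epithelium along the renal tubule and not in 1 segment alone. A Pax-rtTA driver stands in the series title instead, and the titles of the wild-type libraries also begin with NICD, so the driver and the presence of the allele in the wild-type kidneys are not settled by the labels. Nothing in the labels ties each library to an animal of its own; p-values therefore reflect how far these samples scatter, and that scatter may be technical.

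These enzymes make lipophilic compounds soluble or change their carbonyl groups. Ugt enzymes sit in the endoplasmic reticulum and pass the sugar of a UDP donor, mostly UDP-glucuronic acid, to steroids, bilirubin, drugs and phenols. Sult enzymes work in the cytosol and pass a sulfate group from the donor PAPS to phenols, catecholamines and steroids. Akr1 enzymes use NADPH to reduce aldehydes, ketosteroids and sugars. In the kidney the proximal tubule is the best known site of glucuronidation, and its cells export the conjugates into the urine.

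Levels are FPKM, the fragments of a gene scaled to transcript length and to the mapped fragments of the library, so genes can be set side by side per length. Means are given ± SD over the 3 libraries of a group (n = 3 throughout). A fold is the ratio of the group means of FPKM, and a log2 fold change comes from the limma fit on log2(FPKM + 1), which understates the change of low genes. From the steps between low values, 1 FPKM on 1 kb of transcript was estimated to rest on 14.6 to 17.9 fragments, depending on the library. Wild-type replicate 1 stood apart. Its 9 adrenal cortex markers summed to 3870 FPKM and its 4 adrenal medulla markers to 1087 FPKM, against at most 10.2 and 0.22 FPKM in the other 5 libraries. Its 6 adipocyte markers summed to 4312 FPKM against 63.1 to 893 FPKM, and results that change without it are given both ways. All 15 proximal tubule markers fell, beside 16.2% of all genes tested. They summed to 5089 to 7592 FPKM in wild type and to 270 to 894 FPKM in NICD2_Pax8. The 2 podocyte, 2 thick ascending limb and 2 collecting duct markers were above 0 in all 6 libraries. Of these 6 genes 5 also fell, beside the same share of all genes. Of the 2 thick ascending limb markers 1 did not pass. Their sum was 733, 1734 and 1371 FPKM in wild type and 972, 1484 and 1625 FPKM in NICD2_Pax8. FPKM were not scaled for library composition. Of 13500 genes tested, 73.6% of the calls were higher in NICD2_Pax8 and 50.6% after median-of-ratios scaling, which moved the median log2 fold change of all genes from 0.32 to 0.

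Most of the abundant conjugating and reducing enzymes fell in the NICD2_Pax8 kidneys, and a small set of low or moderate ones rose. Of the 44 genes, 30 passed the filter of 1 FPKM or more in at least 3 libraries. By limma with Benjamini-Hochberg adjustment over all genes tested, 18 of the 30 fell, where 16.2% of all genes did, and 5 rose, where 45.1% of all genes did. The other 7 did not pass. After median-of-ratios scaling 20 fell, where 27.0% of all genes did, and 5 rose, where 27.6% did. The median log2 fold change was -0.90 over the 30, beside 0.32 over all genes, and -1.16 after scaling. For 7 members the fall was log2 2 or more, a size reached by 2.36% of genes tested. No library of 1 group reached the other group's range for 19 members lower in NICD2_Pax8, where 18.8% of all genes did not, and for 5 higher, where 49.9% did not. Without wild-type replicate 1, 21 fell (16.9% of all genes) and 7 rose (49.3%); with scaling besides, 22 fell (29.2%) and 4 rose (29.7%). The filter admits genes that reach 1 FPKM in 1 group alone, as Ugt1a1 did in NICD2_Pax8 and Sult5a1 in wild type. The fit with no filter called 19 of the 44 lower and 6 higher, where 12.2% and 32.6% of all genes were. In whole-kidney RNA, fewer cells of a type and less RNA per cell cannot be told apart.

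Summed over the family, Ugt transcripts stood at 1554 ± 255 FPKM in wild type and 178 ± 53.5 FPKM in NICD2_Pax8, an 8.76-fold lower level. The Sult sum went from 467 ± 92.6 to 152 ± 29.8 FPKM and the Akr1 sum from 2740 ± 319 to 932 ± 124 FPKM. By library the wild-type Akr1 sum was 3052, 2414 and 2754 FPKM in replicates 1 to 3, and Akr1b7 made up 997 FPKM of the first. Wild-type means of 100 FPKM or more were held by 8 members: Ugt3a2, Ugt2b38, Ugt1a7c, Ugt3a1, Sult1d1, Akr1a1, Akr1c21 and, through wild-type replicate 1 alone, Akr1b7. In NICD2_Pax8 only Akr1a1 and Sult1d1 of the 44 kept such a mean.

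**Figure D1:**
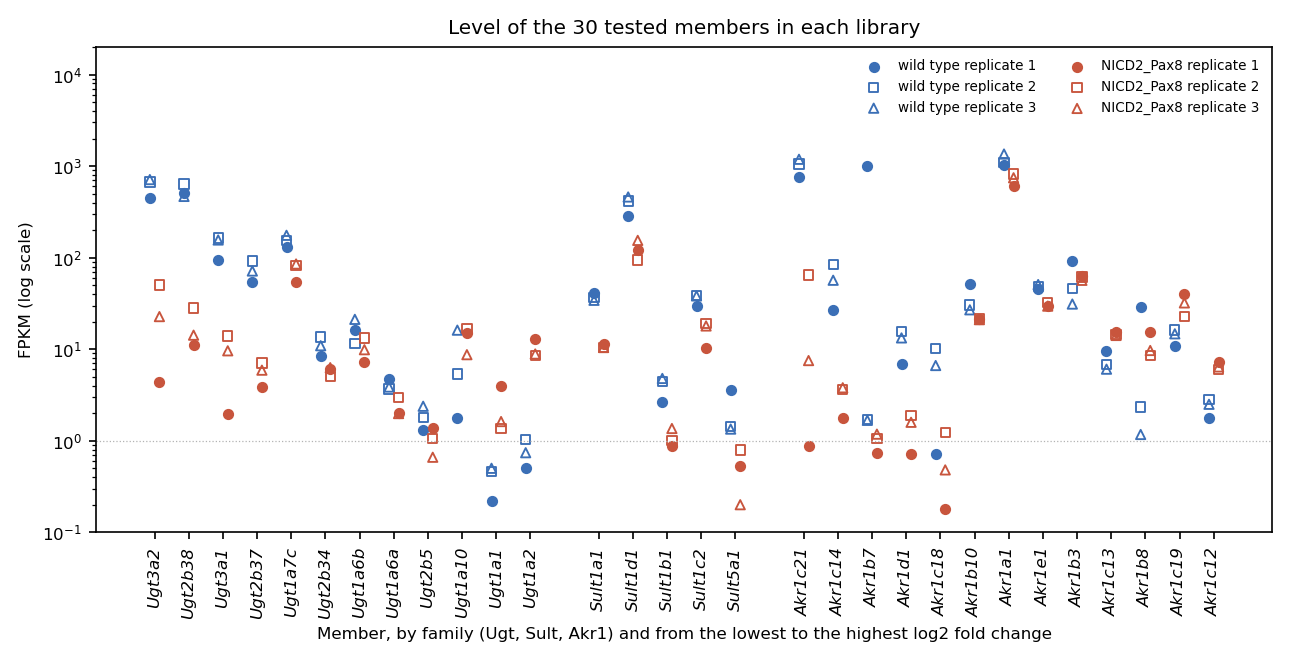
FPKM of the 30 tested members in each of the 6 libraries on a log axis, wild type in blue and NICD2_Pax8 in red, with a marker shape for each replicate and a dotted line at 1 FPKM. The members at the left of each family lie lower in NICD2_Pax8, as Ugt2b38 does at 11.02 to 28.2 against 466 to 638 FPKM, and Akr1b7 is high in wild-type replicate 1 alone.

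**Figure D2:**
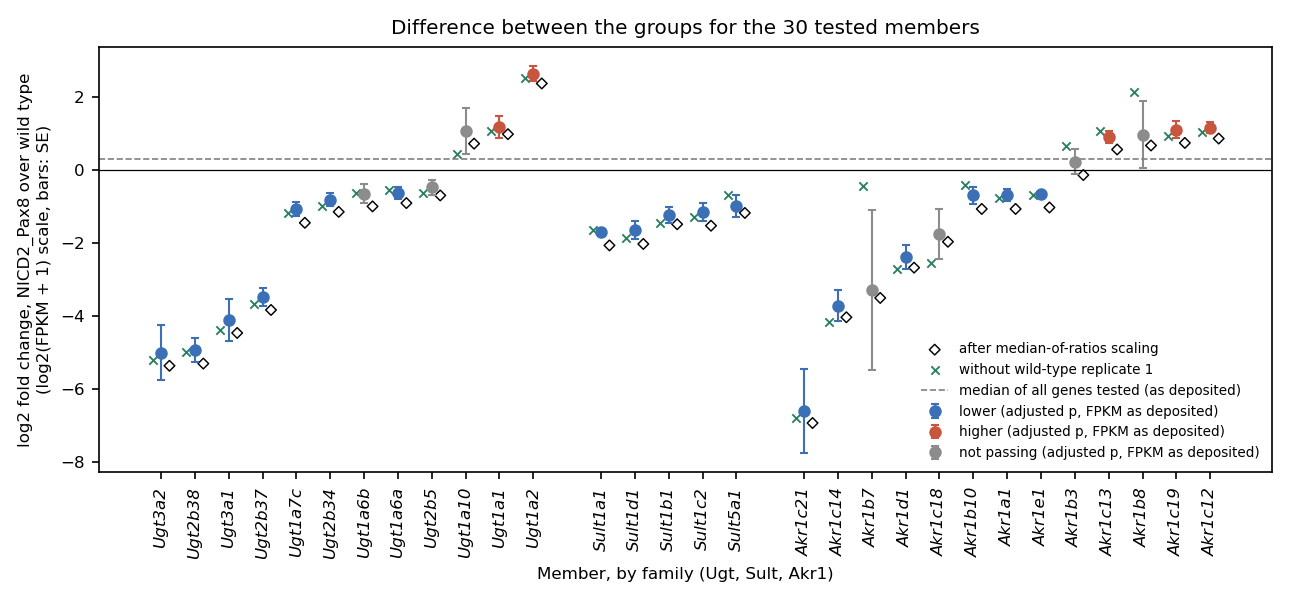
Log2 fold change of each tested member with its limma standard error (filled circles, coloured by call), after median-of-ratios scaling (open diamonds) and without wild-type replicate 1 (crosses), with the median of all genes tested as a dashed line at 0.32. Fold changes run from -6.60 for Akr1c21 to 2.65 for Ugt1a2, and leaving out wild-type replicate 1 moves Akr1b7 and Akr1b8 most.

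Ugt2b genes encode the steroid-conjugating branch of the family, and the abundant ones fell steeply. Positions are those of the deposited table, in GRCm38. Ugt2b38 (gene 100559, chromosome 5, 87409939 to 87424203) stood at 509, 638 and 466 FPKM in wild-type replicates 1 to 3 and at 11.02, 28.2 and 14.2 FPKM in NICD2_Pax8 replicates 1 to 3. The groups lay far apart, and NICD2_Pax8 replicate 2 was the highest of its group. This was a 30.2-fold fall in mean FPKM (log2 fold change -4.93, SE 0.32, adjusted p = 7.62e-05). Ugt2b37 (gene 112417, chromosome 5, 87240492 to 87254788) stood at 54.8, 91.7 and 71.4 FPKM in wild type and at 3.85, 7.05 and 5.90 FPKM in NICD2_Pax8, a 13-fold fall (log2 fold change -3.48, SE 0.25, adjusted p = 9.25e-05). Ugt2b34 fell less, from 11 ± 2.58 FPKM to 5.76 ± 0.682 FPKM, with adjusted p = 0.00738. Ugt2b5 was low throughout, at 1.31, 1.78 and 2.38 FPKM in wild type and 1.39, 1.05 and 0.66 FPKM in NICD2_Pax8, and did not pass (adjusted p = 0.0818; 0.0333 after median-of-ratios scaling and 0.0353 without wild-type replicate 1). With these falls Ugt2b38 went from 86.3% to 58.8% of the summed Ugt2b mean and Ugt2b34 from 1.76% to 19.0%.

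The start regions of Ugt2b38, Ugt2b37 and Ugt2b5 are shown because similar promoters go with very unequal levels. Over the 250 bases before the start site (RefSeq, GRCm38.p6), Ugt2b38 was 84.8% identical to Ugt2b37 and 81.5% identical to Ugt2b5. Its wild-type mean was 7.4 times that of Ugt2b37 and 295 times that of Ugt2b5, and its NICD2_Pax8 mean 3.18 and 17.3 times. The last 150 bases are given 5′ to 3′ on the strand of the gene, with capitals in Ugt2b37 and Ugt2b5 for bases that differ from Ugt2b38, or have no partner there, in the alignment of the 250 bases.
Ugt2b38, chr5:87424204-87424353, minus strand: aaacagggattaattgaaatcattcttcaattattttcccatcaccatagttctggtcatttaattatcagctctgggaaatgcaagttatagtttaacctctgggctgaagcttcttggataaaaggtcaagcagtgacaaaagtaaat
Ugt2b37, chr5:87254789-87254938, minus strand: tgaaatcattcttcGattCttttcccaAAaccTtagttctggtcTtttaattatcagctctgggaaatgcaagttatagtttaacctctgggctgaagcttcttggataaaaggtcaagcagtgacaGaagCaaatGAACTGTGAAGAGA
Ugt2b5, chr5:87140341-87140490, minus strand: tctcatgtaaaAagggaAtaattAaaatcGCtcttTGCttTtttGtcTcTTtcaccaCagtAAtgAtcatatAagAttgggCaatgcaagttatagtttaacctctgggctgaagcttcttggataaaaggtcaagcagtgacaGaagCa
The transcripts are alike too: 37.4% of the 50-base windows of Ugt2b38 and 41.7% of those of Ugt2b5 also occur in another member. How the authors' counting shared fragments between such copies is not given in the sources used here, so the low level of Ugt2b5 is uncertain.

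Both Ugt3a genes fell with them. Enzymes of the UGT3 family are known to use UDP sugars other than UDP-glucuronic acid. Ugt3a2 (gene 223337, chromosome 15, 9335551 to 9370955), the most abundant Ugt transcript of the wild-type kidney by mean, stood at 448, 672 and 712 FPKM in wild type and at 4.42, 50.4 and 22.7 FPKM in NICD2_Pax8. Its fall was 23.6-fold in the mean and 45.0-fold when NICD2_Pax8 replicate 2, which held the most, was left out (log2 fold change -5.0, SE 0.76, adjusted p = 0.00143). Ugt3a1 (gene 105887, chromosome 15, 9279822 to 9322248), its neighbour, stood at 93.4, 164 and 156 FPKM in wild type against 1.98, 13.9 and 9.60 FPKM, a 16.2-fold fall (log2 fold change -4.11, SE 0.58, adjusted p = 0.00111). In both genes wild-type replicate 1 was the lowest wild-type library and NICD2_Pax8 replicate 1 the lowest of all. A row with an identifier of the authors overlaps Ugt3a1 on the same strand, at 6.17, 0 and 33.3 FPKM in wild type and at most 0.61 FPKM in NICD2_Pax8.

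The Ugt1a genes changed in both directions within 1 locus. In this locus alternative first exons, each with its own promoter, are joined to common exons that encode the part binding the sugar donor. In the GENCODE M21 annotation 9 Ugt1a genes with 5 exons share the second exon, and 8 of them had values here. Their first exons have 879 to 954 bases. Of the 50-base windows of each gene, 54.2% to 96.0% also occur in another member, and for Ugt1a6a (96.0%) and Ugt1a6b (79.8%) the share is too large to lie in the common exons alone. For Ugt1a6a the closest member was Ugt1a7c, with 94.2% of its windows. The annotation lists under Ugt1a7c a transcript whose first exon is also listed for Ugt1a6b and which then runs on within Ugt1a6a. That share therefore rests partly on how the annotation assigns transcripts to genes. With windows shared this widely, Ugt1a values are uncertain as measures of single genes.

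Ugt1a7c (gene 394432, chromosome 1, 88095001 to 88220002) was the dominant form, at 129.8, 153 and 175 FPKM in wild type and 53.9, 82.1 and 85.2 FPKM in NICD2_Pax8. It fell 2.07-fold without overlap of the groups (log2 fold change -1.06, SE 0.20, adjusted p = 0.004). Ugt1a6a, of a subfamily that conjugates planar phenols, fell from 4.08 ± 0.554 FPKM to 2.32 ± 0.557 FPKM, with adjusted p = 0.0137 (0.0532 without NICD2_Pax8 replicate 3). Ugt1a6b stood at 16.3, 11.4 and 21.2 FPKM in wild type against 7.16, 13.2 and 9.87 FPKM, with overlapping groups (adjusted p = 0.0789, and 0.0261 after median-of-ratios scaling). It passed as a fall also with upper quartile scaling or quantile normalization, and without wild-type replicate 2 or NICD2_Pax8 replicate 2 (adjusted p 0.0366 and 0.0456).

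The pair nearest to the common exons rose instead. Ugt1a2 (gene 22236, chromosome 1, 88200611 to 88220002) stood at 0.50, 1.04 and 0.74 FPKM in wild type and at 12.99, 8.50 and 8.86 FPKM in NICD2_Pax8. All 3 NICD2_Pax8 libraries were far above the wild-type ones, a 13.3-fold rise (log2 fold change 2.65, SE 0.20, adjusted p = 0.000104). Ugt1a1 (gene 394436, chromosome 1, 88211959 to 88220002), the bilirubin-conjugating enzyme, stood at 0.22, 0.46 and 0.50 FPKM in wild type against 4.01, 1.35 and 1.62 FPKM, a 5.92-fold rise, or 3.78-fold without NICD2_Pax8 replicate 1 (log2 fold change 1.18, SE 0.30, adjusted p = 0.0122). Ugt1a1 reached 1 FPKM in the NICD2_Pax8 libraries alone, so it entered the test through the group where it was high. In the limma fit without the filter it also passed as higher (adjusted p = 0.0213), where 32.6% of 19503 genes did. Its call was lost with quantile normalization (adjusted p = 0.0594) and after median-of-ratios scaling with wild-type replicate 1 left out (adjusted p = 0.0564). Their starts lie 14.4 and 3.1 kb from the common second exon, and those of Ugt1a6a, Ugt1a6b and Ugt1a7c 80.2, 111.8 and 120 kb away. At the far end, 159.6 kb away, Ugt1a10 stood at 1.76, 5.34 and 16.1 FPKM in wild type and 15.2, 16.8 and 8.71 FPKM in NICD2_Pax8. The wild-type libraries themselves differed widely, and it did not pass (adjusted p = 0.179), and without wild-type replicate 3 it rose 3.82-fold (adjusted p = 0.017). Of the summed Ugt1a mean, Ugt1a2 made up 0.417% in wild type and 8.97% in NICD2_Pax8, Ugt1a1 0.216% and 2.06%, and Ugt1a7c 83.9% and 65.4%.

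**Figure D3:**
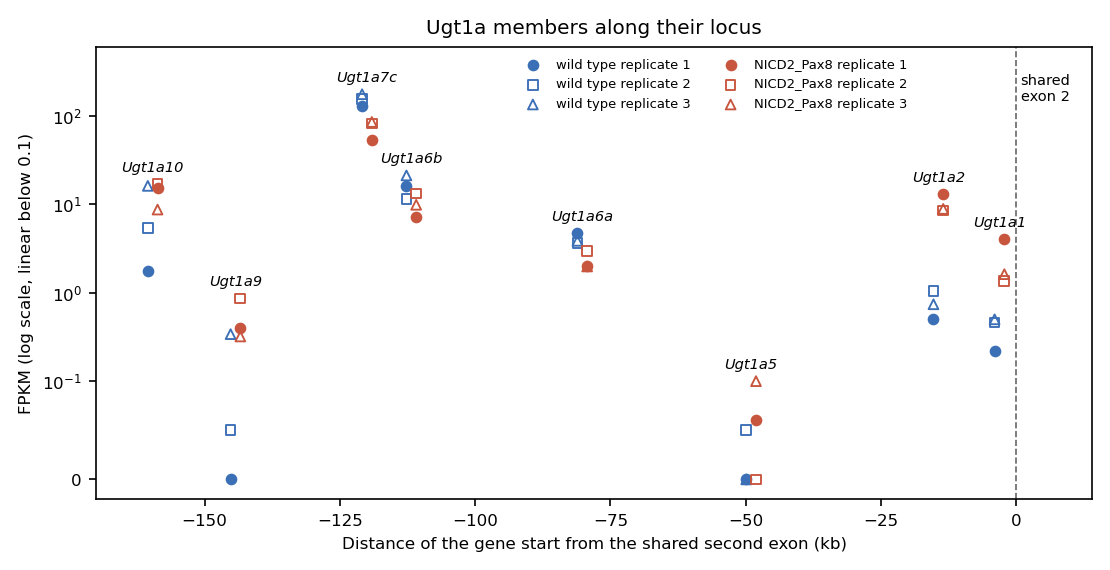
FPKM of the 8 Ugt1a members in each library (log axis, linear below 0.1) against the distance in kb of the gene start from the second exon that they share, marked by the dashed line; the groups are drawn slightly to the left and right of the true distance. Ugt1a2 and Ugt1a1, 14.4 and 3.1 kb from that exon, are higher in every NICD2_Pax8 library, while Ugt1a7c at 120 kb is lower in all 3.

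Letters of an RBPJ site, GTGGGAA on either strand, were looked for because RBPJ is the DNA-binding partner of the Notch intracellular domain. The search took 32851 promoters, each 250 bases before to 50 after a start site (RefSeq, GRCm38.p6), with 38 of 44 members represented. The letters stood in 3 of 40 promoters of members (7.5%) and in 6.38% of all promoters. The members were Ugt3a1 and Ugt2b34, which both fell, and Sult1e1, which was under the filter. The 60 bases around the match in the first 2 are shown 5′ to 3′ because both fell, with the match in capitals, which reads as the reverse complement on the strand of the gene.
Ugt3a1, chr15:9279616-9279675, plus strand: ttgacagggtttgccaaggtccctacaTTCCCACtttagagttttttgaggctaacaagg
Ugt2b34, chr5:86907064-86907123, minus strand: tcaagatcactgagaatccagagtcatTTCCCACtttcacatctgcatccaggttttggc

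The remaining 7 Ugt genes were under the filter. Ugt2a3 was the highest of them in wild type, at 0.41, 0.58 and 0.30 FPKM against 0.16, 0.06 and 0.06 FPKM in NICD2_Pax8. Ugt1a9 stood at 0, 0.05 and 0.34 FPKM in wild type against 0.40, 0.86 and 0.32 FPKM. Ugt1a5, Ugt2a1, Ugt2b1, Ugt2b35 and Ugt2b36 did not exceed 0.14 FPKM in any library. In a fit without the filter Ugt2a3 passed as lower (adjusted p = 0.0124), where 12.2% of 19503 genes were called lower.

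All 5 tested sulfotransferases fell, where 16.2% of all genes did, and 0 rose, where 45.1% of all genes did. After median-of-ratios scaling all 5 fell as well, beside 27.0% of all genes. Sult1d1 (gene 53315, chromosome 5, 87554650 to 87569006), a catecholamine and phenol sulfotransferase, made up 82.7% of the summed Sult mean in wild type and 80.7% in NICD2_Pax8. It stood at 283, 417 and 460.0 FPKM in wild type and at 119.8, 94.2 and 154 FPKM in NICD2_Pax8, a 3.15-fold fall (log2 fold change -1.64, SE 0.24, adjusted p = 0.00131). NICD2_Pax8 replicate 2 was its lowest library, unlike for the Ugt3a genes. Sult1a1 (gene 20887, chromosome 7, 126672865 to 126695783), the general phenol sulfotransferase, stood at 41.1, 36.6 and 34.2 FPKM in wild type against 11.4, 10.4 and 10.4 FPKM. Its replicates agreed closely, and the fall was 3.47-fold (log2 fold change -1.70, SE 0.10, adjusted p = 6.5e-05). The row of Slx1b overlaps it on the same strand, at 1.54 to 3.4 FPKM over the 6 libraries.

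Sult1c2 (gene 69083, chromosome 17, 53829637 to 53845958) stood at 29.6, 38.8 and 38.2 FPKM in wild type and 10.4, 19.1 and 17.9 FPKM in NICD2_Pax8, with adjusted p = 0.00523. Sult1b1 (gene 56362, chromosome 5, 87513339 to 87538195), which conjugates thyroid hormones, stood at 2.65, 4.44 and 4.79 FPKM in wild type against 0.88, 1.01 and 1.36 FPKM (log2 fold change -1.23, SE 0.21, adjusted p = 0.00225). These were falls of 2.24-fold and 3.66-fold in mean FPKM, with no overlap. Sult5a1 was low, at 3.57, 1.42 and 1.34 FPKM in wild type against 0.53, 0.79 and 0.20 FPKM, and highest in wild-type replicate 1. It reached 1 FPKM in wild type alone, so it entered the test through the group where it was high. In the limma fit without the filter it also passed as lower (adjusted p = 0.0393), where 12.2% of 19503 genes did. Its 4.16-fold fall (adjusted p = 0.0241) was 2.72-fold without that library (adjusted p = 0.0243), and the call was lost without NICD2_Pax8 replicate 1 (adjusted p = 0.058) or 3 (adjusted p = 0.0775).

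The other 5 Sult genes with values were under the filter. Sult1e1, the estrogen sulfotransferase, stood at 1.46, 0.36 and 0.12 FPKM in wild type and 0.17, 0.05 and 0 FPKM in NICD2_Pax8. Sult2b1, which sulfates cholesterol, stood at 0.42, 0.96 and 0.63 FPKM in wild type against 0.72, 1.20 and 0.64 FPKM, with overlapping groups. Sult4a1, a brain form, reached 1.45 FPKM in wild-type replicate 1 and at most 0.3 FPKM elsewhere, and Sult2a1 and Sult6b1 did not exceed 0.14 FPKM. Sult2a1, the classical hydroxysteroid sulfotransferase of liver, was listed at 0 in 5 of the 6 libraries.

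Among the aldo-keto reductases, the single-gene branches fell. Akr1a1 (gene 58810, chromosome 4, 116636510 to 116651674), the aldehyde reductase that in mice also serves ascorbate synthesis by reducing glucuronate, was the most abundant member in both groups. It stood at 1024, 1099 and 1355 FPKM in wild type and 611, 817 and 746 FPKM in NICD2_Pax8. The fall was 1.6-fold, small beside those of the Ugt2b and Ugt3a genes (log2 fold change -0.68, SE 0.17, adjusted p = 0.0123). Akr1e1, which reduces anhydrofructose, fell from 48.3 ± 2.48 FPKM to 30.5 ± 1.47 FPKM, with adjusted p = 0.00103. Akr1d1 (gene 208665, chromosome 6, 37529978 to 37574921), the steroid reductase of bile acid synthesis, stood at 6.82, 15.7 and 13.3 FPKM in wild type against 0.72, 1.89 and 1.59 FPKM, an 8.52-fold fall (log2 fold change -2.39, SE 0.33, adjusted p = 0.000931).

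The Akr1c genes lie in 1 cluster on chromosome 13 and went both ways. They are mostly hydroxysteroid dehydrogenases, which turn keto and hydroxyl groups of steroids and prostaglandins into each other. Akr1c21 (gene 77337, chromosome 13, 4574075 to 4586543), a hydroxysteroid dehydrogenase of the mouse kidney, made up 92.1% of the summed Akr1c mean in wild type. It stood at 756, 1051 and 1187 FPKM there and at 0.88, 64.4 and 7.51 FPKM in NICD2_Pax8. The NICD2_Pax8 libraries differed strongly among themselves, and replicate 2 carried most of their mean: the fall was 41.2-fold, or 238-fold without it (log2 fold change -6.60, SE 1.15, adjusted p = 0.00266). Akr1c14 (gene 105387, chromosome 13, 4048991 to 4090560), another hydroxysteroid dehydrogenase, at the other end of the cluster, stood at 26.99, 83.7 and 56.6 FPKM in wild type against 1.76, 3.63 and 3.79 FPKM, an 18.2-fold fall (log2 fold change -3.71, SE 0.42, adjusted p = 0.000458). Akr1c18, which inactivates progesterone, stood at 0.71, 10.2 and 6.63 FPKM in wild type against 0.18, 1.22 and 0.48 FPKM. Wild-type replicate 1 overlapped the NICD2_Pax8 libraries, and the difference did not pass (adjusted p = 0.06). Without wild-type replicate 1 it fell (log2 fold change -2.55, adjusted p = 0.000895), and it also passed with quantile normalization (adjusted p = 0.0429) and with a replicate block (adjusted p = 0.0164).

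The 3 members that follow each other in the middle of the cluster rose. Akr1c19 (gene 432720, chromosome 13, 4233740 to 4248359) stood at 10.8, 16.1 and 14.7 FPKM in wild type and 40.02, 22.8 and 32.03 FPKM in NICD2_Pax8 (log2 fold change 1.11, SE 0.23, adjusted p = 0.00544). Akr1c13 (gene 27384, chromosome 13, 4191168 to 4205604) stood at 9.45, 6.77 and 6.05 FPKM in wild type against 15.5, 14.5 and 14.1 FPKM (log2 fold change 0.92, SE 0.16, adjusted p = 0.00264). Akr1c12 (gene 622402, chromosome 13, 4268172 to 4279399) stood at 1.78, 2.84 and 2.5 FPKM in wild type against 7.23, 6.03 and 6.40 FPKM (log2 fold change 1.17, SE 0.15, adjusted p = 0.00082). These were rises of 2.27, 1.98 and 2.76-fold without overlap of the groups, and all 3 still rose after median-of-ratios scaling, by log2 0.75, 0.57 and 0.87. With that scaling and without wild-type replicate 1, the call of Akr1c19 was lost (adjusted p = 0.0786). Together with the fall of Akr1c21, Akr1c19 went from 1.28% to 38.7% of the summed Akr1c mean. Akr1c20 and Akr1c6, under the filter, stood at 0.93, 0.90 and 0.67 FPKM in NICD2_Pax8 against 0.23, 0.36 and 0.18 in wild type, and at 0 in all NICD2_Pax8 libraries against 0.06, 0.19 and 0.29 FPKM in wild type. In the limma fit without the filter Akr1c20 passed as higher (log2 fold change 0.54, adjusted p = 0.00427), where 32.6% of 19503 genes were. Akr1c6 passed there as lower (adjusted p = 0.0431), where 12.2% were.

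Akr1c12 and Akr1c13 had the most alike promoters of all pairs within a subfamily, with 92.5% identity over 250 bases. Their last 120 bases are shown because both rose, with capitals in Akr1c13 for bases that differ from Akr1c12 or have no partner there.
Akr1c12, chr13:4279400-4279519, minus strand: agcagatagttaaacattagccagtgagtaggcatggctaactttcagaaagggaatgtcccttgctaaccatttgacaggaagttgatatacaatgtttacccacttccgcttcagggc
Akr1c13, chr13:4191067-4191186, plus strand: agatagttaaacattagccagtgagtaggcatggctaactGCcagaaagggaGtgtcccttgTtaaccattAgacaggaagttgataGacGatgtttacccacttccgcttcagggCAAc
Of their 50-base transcript windows 28.6% occur in the other gene, so fragments may be shared between the 2 rows. The mean of Akr1c13 was 3.13 times that of Akr1c12 in wild type and 2.25 times in NICD2_Pax8. Unequal levels do not show that the 2 rows were measured apart, and the part of shared fragments was not tested.

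Akr1b values depended on wild-type replicate 1, the library with adrenal transcripts. Akr1b7 (gene 11997, chromosome 6, 34412362 to 34423137), an aldose reductase-like enzyme well known from adrenal cortex and vas deferens, stood at 997, 1.70 and 1.67 FPKM in wild type and 0.74, 1.06 and 1.18 FPKM in NICD2_Pax8. The first wild-type value stood far above the others, beside Cyp11a1, the first enzyme of steroid synthesis, at 626, 0 and 0.04 FPKM and the chromaffin protein Chga at 552, 0.11 and 0 FPKM in the same 3 libraries. The difference did not pass (log2 fold change -3.28, SE 2.19, adjusted p = 0.233). Without wild-type replicate 1 it was 1.7-fold lower in mean FPKM and passed narrowly (log2 fold change -0.44, adjusted p = 0.0406), between values all near the filter of 1 FPKM. In the authors' deposited table Akr1b7 passed with a log2 fold change of -3.96 (q = 0.00409).

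Akr1b8 (gene 14187, chromosome 6, 34354146 to 34368461), a related reductase, stood at 29.1, 2.33 and 1.17 FPKM in wild type and at 15.5, 8.49 and 9.68 FPKM in NICD2_Pax8. With all libraries the groups overlapped (adjusted p = 0.389). Without wild-type replicate 1 it rose 6.42-fold (log2 fold change 2.14, adjusted p = 0.00144), also after median-of-ratios scaling (log2 fold change 1.82, adjusted p = 0.00284). Akr1b3, aldose reductase, which makes the osmolyte sorbitol from glucose, stood at 90.97, 45.8 and 31.1 FPKM in wild type against 63.1, 61.2 and 56.5 FPKM and did not pass (adjusted p = 0.573; log2 fold change 0.24, and -0.13 after median-of-ratios scaling). It passed as higher without wild-type replicate 1 (adjusted p = 0.0161), but not with median-of-ratios scaling besides (log2 fold change 0.24, adjusted p = 0.24). Akr1b10 stood at 52.02, 30.3 and 26.9 FPKM in wild type against 21.2, 21.6 and 21.01 FPKM and fell (adjusted p = 0.0376); the log2 fold change went from -0.69 to -0.41 without wild-type replicate 1 (adjusted p = 0.0102). Its call was lost without wild-type replicate 2 (adjusted p = 0.0522) and without any 1 of the 3 NICD2_Pax8 libraries (adjusted p 0.0839 to 0.0907). Whether adrenal RNA accounts for the Akr1b values of that library was not tested.

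**Figure D4:**
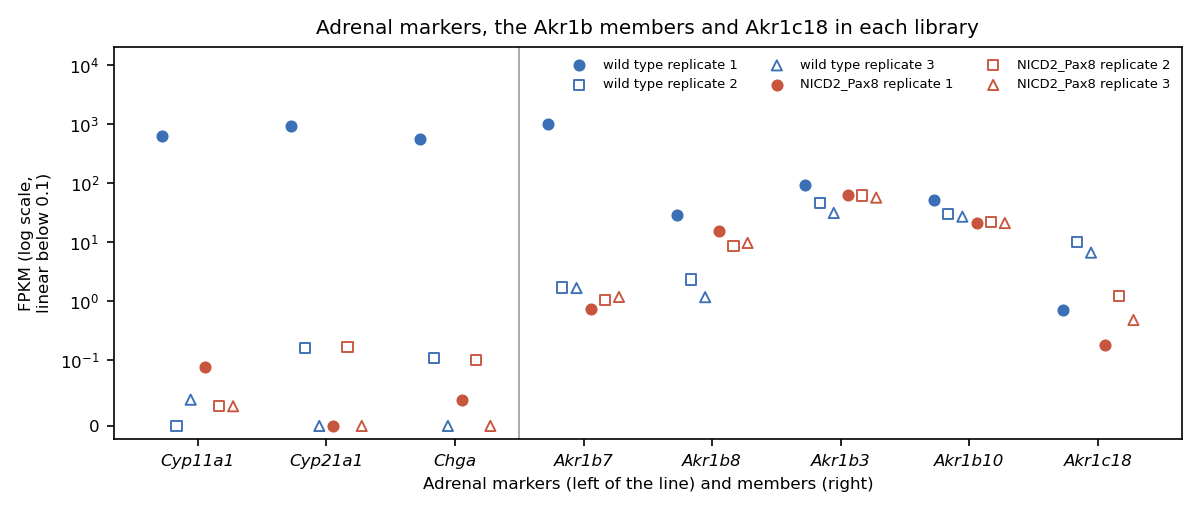
FPKM in each library (log axis, linear below 0.1) of the adrenal markers Cyp11a1, Cyp21a1 and Chga, left of the line, and of the 4 Akr1b members and Akr1c18, right of it. Wild-type replicate 1 is the high point of the adrenal markers and of Akr1b7 at 997 FPKM, and the low wild-type point of Akr1c18 at 0.71 FPKM.

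The order of libraries within each group was partly shared among the members. Of the 18 members that fell, 13 were lowest in wild-type replicate 1 among the wild-type libraries, 11 lowest in NICD2_Pax8 replicate 1 and 12 highest in NICD2_Pax8 replicate 2 among their own. For 7 of the 18, among them Akr1c21, Ugt3a1 and Ugt3a2, all 3 held. No share over all genes, or over all that fell, stands beside these counts. They are therefore not read as particular to the members. The summed proximal tubule markers were likewise lowest in wild-type replicate 1, at 5089 FPKM, lowest in NICD2_Pax8 replicate 1, at 270 FPKM, and highest in NICD2_Pax8 replicate 2, at 894 FPKM. The 7 genes listed as androgen-responsive in the male mouse kidney also all fell (Slc7a13 is in both lists), beside 16.2% of all genes. Their sum was 57235 to 87055 FPKM in wild type and 369, 4796 and 1360 FPKM in NICD2_Pax8. Transcripts of 4 Y-linked genes were present in every library, summing to 58.4 to 62.7 FPKM in wild type and 55.7, 21.9 and 40.3 FPKM in NICD2_Pax8 replicates 1 to 3. The 7 leukocyte markers summed to 149, 61 and 45 FPKM in wild type and 189, 262 and 220 FPKM in NICD2_Pax8. All 6 tubular injury markers rose, beside 45.1% of all genes, and all 6 after median-of-ratios scaling, beside 27.6%. Their sum was 442, 674 and 650 FPKM in wild type and 14115, 8999 and 10797 FPKM in NICD2_Pax8. The part of these differences in the falls of the members was not tested. The 6 hepatocyte markers summed to 109 to 282 FPKM in wild type and 67.4 to 111 FPKM in NICD2_Pax8. They did not move alike: of the 4 tested, 2 fell, 1 rose and 1 did not pass, beside 16.2% of all genes lower and 45.1% higher. After median-of-ratios scaling 2 fell and 1 rose as well. Alb, albumin, the defining one, stood at 1.88, 1.76 and 2.72 FPKM in wild type and at most 0.06 FPKM in NICD2_Pax8.

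Genes listed for supply of the sugar and sulfate donors moved in both directions. The counts of these lists stand beside 45.1% of all genes higher and 16.2% lower, or 27.6% and 27.0% after scaling. Of 9 tested genes for UDP-glucuronic acid supply 4 fell and 3 rose, with a median log2 fold change of -0.50 beside 0.32 over all genes; after median-of-ratios scaling 4 fell and 1 rose. Ugp2, which makes UDP-glucose, stood at 67.4, 79.7 and 75.3 FPKM in wild type and 40.5, 36.5 and 37.3 FPKM in NICD2_Pax8 (log2 fold change -0.94, SE 0.10, adjusted p = 0.000379). Pgm1, a phosphoglucomutase, fell from 51.8 ± 1.99 FPKM to 29.1 ± 2.52 FPKM, and Ugdh, which oxidises UDP-glucose to UDP-glucuronic acid, from 43.7 ± 12 FPKM to 24.3 ± 2.02 FPKM. Miox, the most abundant gene of the list over all 6 libraries, breaks down inositol to free glucuronate, which is not UDP-glucuronic acid. This gene is also in the proximal tubule marker list. Miox stood at 1475, 1799 and 2290.2 FPKM in wild type against 2.22, 118 and 19.2 FPKM. It fell 39.9-fold, or 173-fold when NICD2_Pax8 replicate 2 was left out (log2 fold change -6.53). Slc35d1, a carrier of UDP sugars into the endoplasmic reticulum, rose from 11.4 ± 1.94 FPKM to 20.2 ± 3.35 FPKM (adjusted p = 0.00647; 0.115 after median-of-ratios scaling). Hk1, a hexokinase, and Pgm2, another phosphoglucomutase, also rose, by log2 0.70 and 0.69, and of the 3 only Pgm2 still rose after scaling (adjusted p = 0.0475). Ugdh, Slc35d1, Hk1 and Pgm2 were chosen for mention after their values were seen, as were Papss1, Papss2, Slc13a1, Slc35b2, Gusb, Nr1i2 and Ahr.

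In the sulfate and PAPS list 6 of 12 fell and 5 rose, with a median of -0.36; after scaling 6 fell and 4 rose. Papss2, a PAPS synthase, stood at 71.7, 103 and 127 FPKM in wild type and 23.2, 35.5 and 31.3 FPKM in NICD2_Pax8 (adjusted p = 0.00109), while its paralogue Papss1 stood at 46.5 ± 6.72 FPKM on average in wild type against 52.3 ± 0.769 FPKM and did not pass (adjusted p = 0.24). Slc13a1, the sulfate carrier of the brush border, stood at 97.5, 117 and 138 FPKM in wild type against 5.03, 16.7 and 15.9 FPKM (adjusted p = 0.000701). Both therefore fell without overlap of the groups. Suox, which oxidises sulfite to sulfate, fell from 31.8 ± 4.38 FPKM to 7.72 ± 1.62 FPKM. The Golgi carriers of PAPS, Slc35b2 and Slc35b3, rose by log2 0.94 and 0.95, and Tst, a thiosulfate sulfurtransferase and the most abundant gene of the list over all 6 libraries, though below Slc13a1 in wild type, from 106 ± 24 FPKM to 220 ± 22.3 FPKM. All 3 also rose after scaling.

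**Figure D5:**
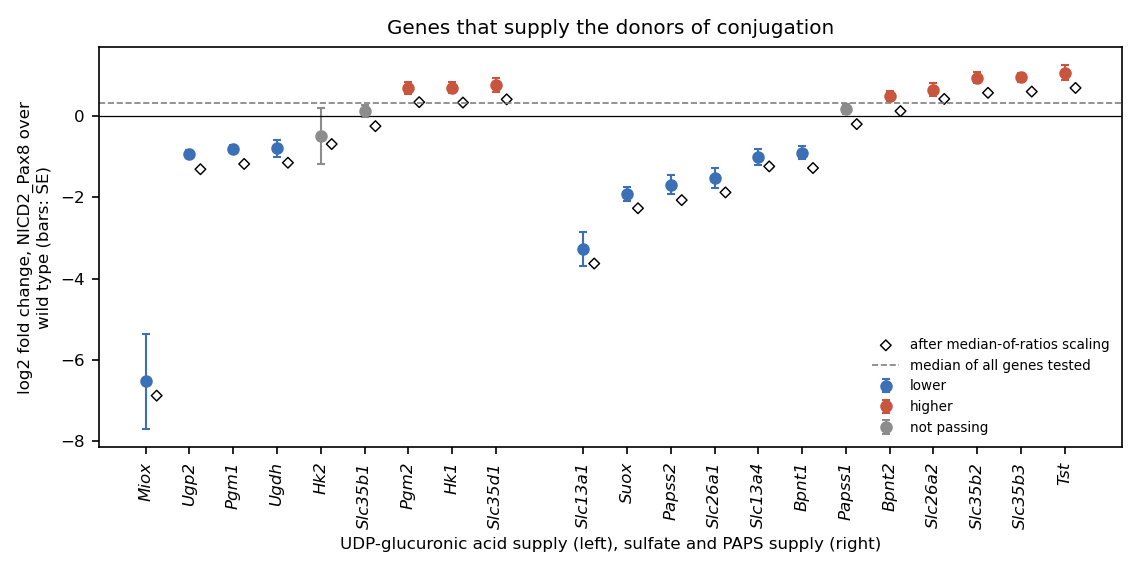
Log2 fold change with limma standard error of the tested genes listed for supply of UDP-glucuronic acid (left) and sulfate or PAPS (right), coloured by call. Open diamonds stand for values after median-of-ratios scaling and the dashed line for the median of all genes, 0.32. Miox at -6.53 and Slc13a1 at -3.27 are the lowest of their lists, and Tst at 1.07 is the highest point.

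Other enzymes of the same chemistry mostly fell or did not pass. Of 27 carbonyl and hydroxysteroid reductases outside the Akr1 family 14 fell and 4 rose, beside 16.2% and 45.1% of all genes. Their median was -0.65, beside 0.32 over all genes. After scaling 20 fell and 3 rose, beside 27.0% and 27.6% of all genes. The 2 with the smallest p rose: Hsd17b14, a hydroxysteroid dehydrogenase, stood at 0.41, 0.78 and 0.78 FPKM in wild type and 81.2, 81.6 and 79.2 FPKM in NICD2_Pax8, and Srd5a1, a steroid reductase that makes dihydrotestosterone, at 8.57, 10.4 and 12.2 FPKM in wild type against 79.5, 85.98 and 72.9 FPKM. Both had libraries far apart between the groups (log2 fold change 5.63, SE 0.12, adjusted p = 8.62e-06 for the first, and 2.83, 0.14 and 3.64e-05 for the second). Hsd17b14 reached 1 FPKM in the NICD2_Pax8 libraries alone, so the filter of 1 FPKM admitted it through the group where it was high. Sord, which turns the sorbitol made by aldose reductase into fructose, was the most abundant and fell from 801 ± 176 FPKM to 135 ± 49.5 FPKM. Of 15 other conjugating and microsomal enzymes 8 fell and 3 rose, with a median of -0.90, and after scaling 9 fell and 1 rose. The same shares and median of all genes stand beside these. Por, the electron donor of microsomal cytochromes P450, fell by 1.72 on the log2 scale and Inmt, a methyltransferase and the most abundant, by 6.55. The fall of Inmt was 38-fold in mean FPKM, or 281-fold when NICD2_Pax8 replicate 2 was left out. Ephx1, microsomal epoxide hydrolase, rose from 37.8 ± 10.2 FPKM to 186 ± 14.5 FPKM.

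Of 9 tested sulfatases and glycosidases, which remove conjugates, 3 rose and 2 fell, beside 45.1% and 16.2% of all genes, with a median of 0; after scaling 0 rose and 3 fell, beside 27.6% and 27.0% of all genes. Arsb fell from 68.5 ± 13.3 FPKM to 27.8 ± 6.36 FPKM and Ids from 16.6 ± 0.374 FPKM to 12.3 ± 0.652 FPKM, both lysosomal sulfatases. Gusb, beta-glucuronidase, rose by log2 0.46 (adjusted p = 0.0405); after scaling its log2 fold change was 0.10 and did not pass (adjusted p = 0.587).

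Of 21 tested regulators of these enzymes 9 rose and 5 fell, beside 45.1% and 16.2% of all genes, with a median of 0.20; after scaling 4 rose and 9 fell, beside 27.6% and 27.0%. With so few genes these counts are not read as a result about the list. Nfe2l2, which drives antioxidant and conjugation genes, stood at 56.3, 45.9 and 48.5 FPKM in wild type and 172, 139.8 and 159.5 FPKM in NICD2_Pax8 (log2 fold change 1.63, SE 0.12, adjusted p = 0.00011). Foxa2, a forkhead factor of liver and other endoderm, stood at 0, 0.04 and 0 FPKM in wild type against 3.64, 3.25 and 2.01 FPKM (log2 fold change 1.94, SE 0.19, adjusted p = 0.00025). Both rose, also after scaling. Foxa2 reached 1 FPKM in the NICD2_Pax8 libraries alone, so the filter of 1 FPKM admitted it through the group where it was high. Hnf4a, a nuclear receptor of proximal tubule and liver and the most abundant of the list, stood at 153, 192 and 209 FPKM in wild type against 68.97, 131 and 169 FPKM, with overlapping groups (adjusted p = 0.113; 0.0424 after scaling). The xenobiotic receptor Nr1i2 stood at 2.35 ± 0.501 FPKM on average in wild type against 2.86 ± 0.685 FPKM and did not pass (adjusted p = 0.373), while Ahr, the dioxin receptor, rose by log2 0.78 (adjusted p = 0.00403).

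In the authors' deposited table, 25 of the 44 members passed a q of 0.05 as lower, where 21.5% of all genes did, and 5 as higher, where 21.3% did. Among the 30 members tested here, 22 were lower and 5 higher in that table. The members that passed there but not in the limma fit were Ugt1a6b, Ugt2b5, Akr1b7 and Akr1c18, all as lower.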

How the data were processed

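RNA-seq of 6 mouse kidney libraries, 3 labelled wild type and 3 labelled R26NICD2/+pax8cre, was analysed. Per the file headers, the deposited table gives FPKM per gene and library, with the authors' log2 fold change and a DESeq2 q-value for the comparison. Per the submitters' processing notes, Bowtie 0.12.2 and the mm8 build were used, but 88.2% of 22002 gene identifiers (52 of 56 matching the name rule) have the start and end of RefSeq GRCm38.p6, so positions are read as GRCm38. The step from fragments to FPKM is not given in the sources used here. It also holds the authors' comparisons of 3 pairs of single libraries, which were not used.

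Genes that reached 1 FPKM in 3 or more libraries (13500 of 19503) were compared with limma 3.58.1 in R 4.3.3 on log2(FPKM + 1) with a mean-variance trend, two-sided, all 6 libraries and no covariate. Benjamini-Hochberg adjusted p-values under 0.05 over all genes tested were called. On simulated data with 13500 genes, 71% of 100 genes changed by log2 1 and 98% of 100 changed by log2 2 were recovered. Of the calls there, 8.15% were false. In the kidney data 8285 of the 13500 genes were called, far more than were changed in the simulated data. The share of changes recovered and of false calls in the kidney data was not tested. Depth was estimated from FPKM steps of short single-transcript genes, with values within 0.15 of a whole fragment counted as whole.

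Members and gene lists were chosen with earlier results of these data known. Full values go, in each family, to the 3 most abundant members and the 3 largest rises and falls, and from each gene list to the most abundant gene and the 2 of smallest p. Some genes and all promoter motifs searched other than that of RBPJ are not reported here. The planned protein comparison was replaced by 50-base windows of GENCODE M21 transcripts and by RefSeq promoters. Alternatives were other pseudocounts, no filter, 3 scalings, a replicate block, each library left out, stricter thresholds and the authors' deposited q-values.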

Additional observations from a re-analysis of the deposited data

How the results depend on the processing

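Over 17 alternatives, of 306 values for the 18 genes chosen for full values 296 kept their side of the threshold, 7 lost it and 3 gained it, with no change of sign. These 18 were picked by abundance or by the largest called changes in the same fit, so their stability does not speak for the other members. Calls outside this set changed too, among them those of Akr1b10, Ugt1a6b, Ugt2b5, Akr1c18 and Sult5a1. Which direction prevailed did turn with the scaling for regulators and for removal of conjugates. Leaving out each library gave 5 to 7 members higher and 15 to 21 lower (5 and 18 with all), 3 to 5 Akr1 genes higher (3 with all, 5 without wild-type replicate 1), 1 to 3 genes for removal of conjugates higher (1 without wild-type replicate 2) and 3 to 6 regulators lower (3 without wild-type replicate 3). Ugt genes higher numbered 2, and 1 with quantile normalization, at an adjusted p of 0.01, and after median-of-ratios scaling with wild-type replicate 1 left out. Akr1 genes lower numbered 6, and 3 at a log2 fold change of at least 1. That limit left 2427 of all genes higher and 1009 lower, against 6095 and 2190; median-of-ratios scaling gave 3725 and 3642 (4016 and 3936 without wild-type replicate 1), quantile normalization 3866 and 3558, and the authors' deposited q-values 3819 and 3562.

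For the gene lists, the genes for UDP-glucuronic acid supply that were higher numbered 3, and 1 with median-of-ratios scaling (also without wild-type replicate 1) and quantile normalization, and 0 by the authors' deposited q-values and at a log2 fold change of at least 1, where 1 of 4 was lower. Sulfate and PAPS genes higher numbered 5, and 3 with quantile normalization and after median-of-ratios scaling with wild-type replicate 1 left out, and 1 at a log2 fold change of at least 1. Genes for removal of conjugates that were higher numbered 3, and 0 with median-of-ratios, upper quartile or quantile scaling, either stricter threshold or the authors' deposited q-values, and 1 after median-of-ratios scaling with wild-type replicate 1 left out, where 4 were lower. Of them 2 were lower with all libraries and 1 at a log2 fold change of at least 1. Regulators higher numbered 9, and 4 with median-of-ratios scaling (also without wild-type replicate 1), 5 with quantile normalization and by the authors' deposited q-values, and 3 at a log2 fold change of at least 1. Regulators lower numbered 5, and 9 with median-of-ratios scaling (also without wild-type replicate 1), upper quartile scaling and the authors' deposited q-values, 3 at an adjusted p of 0.01 and 1 at a log2 fold change of at least 1. Other reductases higher numbered 4, and 2 at a log2 fold change of at least 1. Other conjugating enzymes higher numbered 3, and 1 with median-of-ratios scaling (also without wild-type replicate 1), by the authors' deposited q-values and at a log2 fold change of at least 1. Apart from the stricter thresholds, which call fewer genes by construction, the cause was not tested.

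Deviations of libraries with the same number from their group means correlated at 0.095, -0.05 and 0.006, so the numbers were not taken as pairs. With a replicate block 5 members were higher and 19 lower, Akr1c18 being added, and 5818 and 2164 of all genes. Under an FPKM of 1 few fragments stand behind a value at these depths, and 16 of the 44 members had a wild-type mean and 17 a NICD2_Pax8 mean there.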

Other observations

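Of genes of related function that the name rule does not take, Akr1cl and Srd5a2 were highest in the same library as Akr1b7. Akr1cl, an Akr1c-like gene, stood at 82.1, 0 and 0 FPKM in wild-type replicates 1 to 3 and at 0.17, 0.10 and 0.28 FPKM in NICD2_Pax8. Srd5a2, a steroid reductase, stood at 134.9, 2.42 and 2.5 FPKM in wild type and 1.26, 1.73 and 2.24 FPKM in NICD2_Pax8, and did not pass (limma, adjusted p = 0.218). Ugt8a, the galactosyltransferase of myelin lipids, stood at 23.7, 35.1 and 38.3 FPKM in wild type and 12.5, 10.2 and 13.3 FPKM in NICD2_Pax8, with no overlap of the groups. All 3 were chosen for mention after their values were seen.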
